A study of Homo sapiens with 4 samples.

Results

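The genes described here encode the enzymes that make cholesterol and fatty acids, together with the regulators and close partners of those enzymes that are known as targets of the sterol regulatory element-binding proteins (SREBPs). They were chosen by symbol, with earlier results of these data known, and matched to Ensembl gene identifiers. This gave 37 of the 61533 genes in the count table. Of these, 21 form a sterol branch and 16 a fatty acid branch. RNA sequencing was done on Caki-1, an established human renal cell carcinoma line, with 2 libraries from cells given a lentiviral control hairpin (shControl) and 2 from cells given a hairpin that targets TFE3 (shTFE3). TFE3 belongs to the MiT/TFE transcription factors, which are best known for switching on lysosomal genes. The series asks which transcripts depend on it.

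All cells grew in McCoy's 5A medium with fetal bovine serum, which supplies lipoprotein cholesterol and fatty acids. They were replated 24 hours after infection, received puromycin at 1 µg/ml 12 hours later and were collected after 3 days of selection, so virus and antibiotic were shared by both groups. The genotype is labelled WT in shControl and TFE3-KD in shTFE3. Neither the number of hairpins nor separate infections of the replicates are given in the labels. The p-values therefore rest on library-to-library spread that may be only technical. Counts totalled 17270180 to 17742519 per library. TFE3 mRNA (ENSG00000068323, chrX:49028726-49043486) was at 131 and 128 CPM (counts scaled to the normalized library total) in shControl and at 70.1 and 66.9 CPM in shTFE3, which is 52.9% of control. This was a knockdown to a partial level, with the groups well apart (log2 fold change -0.92, SE 0.062, edgeR Benjamini-Hochberg adjusted p = 5.6e-11). Of 11 renal epithelial markers, PAX2 and CA9 were at 0 counts in every library, and EPCAM was at 8 to 21 counts. The summed counts of the list were 39835 to 42349, of which VIM gave 17735 to 21077. Among the 9 tested, LHX1, CDH6 and KRT18 fell in shTFE3 (log2 fold changes -0.80, -0.55 and -0.28, edgeR adjusted p = 9.25e-07, 5.95e-07 and 0.00191), and the part of these markers in the lipid gene results was not tested. The summed counts of hepatocyte and adipocyte markers, cells known for high lipid synthesis, were at most 8 in any library.

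As background, SREBP2, the product of SREBF2, acts mainly on cholesterol genes, and SREBP1, the product of SREBF1, mainly on fatty acid genes. Both precursors are held in the endoplasmic reticulum by SCAP and by INSIG proteins when sterols are plentiful. When sterols run low they move to the Golgi, are cleaved by proteases, and their released parts enter the nucleus. There they bind sterol response elements in promoters, usually beside a bound NF-Y or Sp1 factor. Kidney cancer cells of the clear cell type are known for stores of cholesteryl ester and triglyceride.

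The sterol branch was lower in the knockdown and the fatty acid branch was mixed. In the sterol branch, 8 of 21 genes fell and 0 rose, and 13 did not pass the test. In the fatty acid branch, 4 of 16 genes fell, 2 rose and 10 did not pass. The 2 rises are a share of 12.5%, near the 10.3% called higher among all genes tested. The sterol genes that fell were HMGCS1, SQLE, TM7SF2, MSMO1, NSDHL, HSD17B7, SC5D and STARD4, which act at the entry to the mevalonate route, in the conversion of squalene to sterols, and in sterol transport. ACSS2, ELOVL6, FADS2 and ACSL1 fell in the fatty acid branch, while FASN and ACSL4 rose.

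Calls were made with edgeR's quasi-likelihood test at a Benjamini-Hochberg adjusted p under 0.05 over all 15950 genes tested. Every one of the 37 genes passed the filter on low counts. Among all genes tested, 12.9% were called lower and 10.3% higher. The sterol share called lower was 38.1% and that of the fatty acid branch was 25%. In the fatty acid branch 12.5% was called higher, near the share of all genes tested. No sterol gene rose at an unadjusted p under 0.05 either, and 0 rose with DESeq2 or limma-voom. The shTFE3 libraries both lay below both shControl libraries in 14 sterol genes, above them in 0, and overlapped them in 7. The same counts were 5, 8 and 3 in the fatty acid branch, against 30.5% below and 29.8% above among all genes tested. A log2 fold change of 0 means equal levels, and its standard error (SE) comes from the fit. The median log2 fold change was -0.17 over the sterol branch and 0.069 over the fatty acid branch, beside 0.0015 over all genes tested. Of the sterol values, 19 were negative and 2 positive, while 6 of the fatty acid values were negative and 10 positive. The median SE of these genes was 0.060, smaller than the 0.099 of all genes tested. Because a call depends on that precision, the shares called are read together with the medians. Both are descriptions, since the genes were chosen with earlier results of these data known. In bulk RNA, fewer cells of a kind and less RNA per cell cannot be told apart.

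The number of sterol calls depended on the libraries. It was 5 without shTFE3 replicate 1, and 6 and 7 without shControl replicates 1 and 2. Without shTFE3 replicate 2 edgeR called 0 sterol genes lower, with 10 at an unadjusted p under 0.05, and all 8 fold changes kept their sign. In that fit the calls over all genes also dropped, to 676 lower and 367 higher. DESeq2 on all 4 libraries called 5 sterol genes lower, and 1187 of all 14608 genes it tested. In each of these fits fewer of all genes were called than by edgeR on all 4 libraries.

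**Figure D1:**
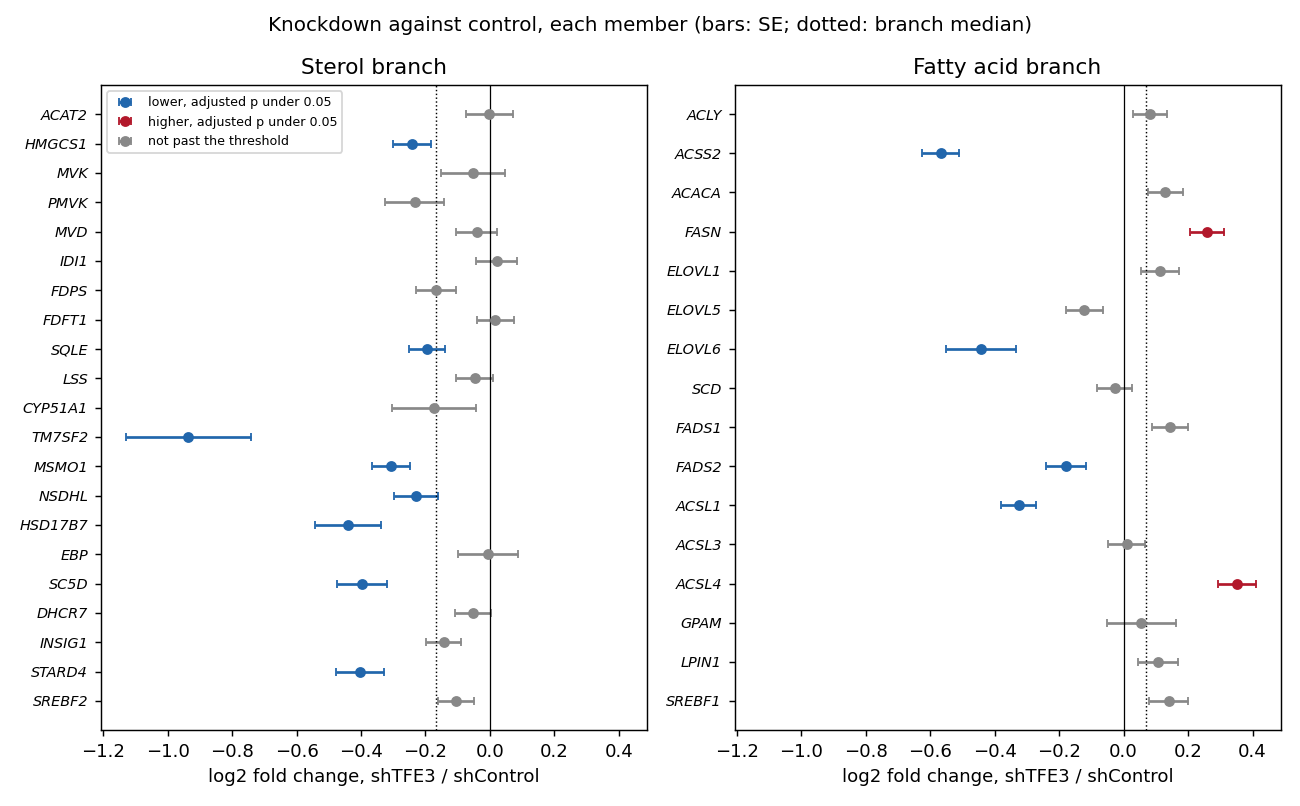
Log2 fold change of shTFE3 against shControl for each gene of the sterol branch (left) and the fatty acid branch (right), in the order of the routes. Points are estimates from 2 libraries a group, bars are 1 SE, colours mark genes past the threshold, and dotted lines mark the branch medians of -0.17 and 0.069. Sterol genes spread from -0.94 to 0.021 and fatty acid genes from -0.57 to 0.35.

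Promoter sequences are shown for the 6 sterol genes with the smallest p and for 3 fatty acid genes picked by the same order, so that the letters shared by the genes can be read. They come from the RefSeq promoter table of GRCh38.p14 and cover the 200 bases before the most upstream listed start, read 5′ to 3′ on the strand of the gene. Capitals mark CCAAT or its reverse complement ATTGG, the box that NF-Y binds, and CACGTG, the E-box that MiT/TFE factors and other bHLH factors bind.
STARD4: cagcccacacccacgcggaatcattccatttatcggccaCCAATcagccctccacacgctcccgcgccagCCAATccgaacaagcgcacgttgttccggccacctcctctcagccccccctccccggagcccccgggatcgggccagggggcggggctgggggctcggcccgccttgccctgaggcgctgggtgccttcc
MSMO1: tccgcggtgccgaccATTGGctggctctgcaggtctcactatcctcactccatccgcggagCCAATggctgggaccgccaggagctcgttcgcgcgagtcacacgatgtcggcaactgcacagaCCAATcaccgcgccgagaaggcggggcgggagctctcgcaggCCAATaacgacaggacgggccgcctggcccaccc
SC5D: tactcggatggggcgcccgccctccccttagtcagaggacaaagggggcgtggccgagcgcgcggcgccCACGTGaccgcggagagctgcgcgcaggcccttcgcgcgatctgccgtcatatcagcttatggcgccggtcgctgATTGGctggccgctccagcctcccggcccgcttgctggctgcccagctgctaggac
TM7SF2: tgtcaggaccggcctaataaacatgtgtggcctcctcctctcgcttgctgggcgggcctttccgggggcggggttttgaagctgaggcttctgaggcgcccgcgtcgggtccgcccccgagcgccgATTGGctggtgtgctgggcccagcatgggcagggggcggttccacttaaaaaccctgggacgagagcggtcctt
HSD17B7: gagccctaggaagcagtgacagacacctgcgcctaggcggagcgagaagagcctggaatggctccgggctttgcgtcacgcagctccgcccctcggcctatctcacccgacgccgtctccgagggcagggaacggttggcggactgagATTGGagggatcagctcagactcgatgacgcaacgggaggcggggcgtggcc
HMGCS1: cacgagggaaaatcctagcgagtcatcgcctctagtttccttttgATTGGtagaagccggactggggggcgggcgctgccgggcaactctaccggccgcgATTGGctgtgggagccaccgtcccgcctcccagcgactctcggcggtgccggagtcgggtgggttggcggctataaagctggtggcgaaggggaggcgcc

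These lie at chr5:111512536-111512735 (STARD4, minus strand), chr4:165327469-165327668 (MSMO1, plus), chr11:121292571-121292770 (SC5D, plus), chr11:65111672-65111871 (TM7SF2, plus), chr1:162790502-162790701 (HSD17B7, plus) and chr5:43313413-43313612 (HMGCS1, minus). MSMO1 held 4 boxes in this stretch, STARD4 and HMGCS1 held 2 each, and SC5D, TM7SF2 and HSD17B7 held 1 each. SC5D was the gene of these 6 with an E-box, 131 bases before its start. The fatty acid genes follow, because ACSS2 and ACSL1 fell and ACSL4 rose.
ACSS2: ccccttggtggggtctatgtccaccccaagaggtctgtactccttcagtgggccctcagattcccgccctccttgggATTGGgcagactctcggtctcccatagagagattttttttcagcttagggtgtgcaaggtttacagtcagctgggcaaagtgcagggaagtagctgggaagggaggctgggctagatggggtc
ACSL4: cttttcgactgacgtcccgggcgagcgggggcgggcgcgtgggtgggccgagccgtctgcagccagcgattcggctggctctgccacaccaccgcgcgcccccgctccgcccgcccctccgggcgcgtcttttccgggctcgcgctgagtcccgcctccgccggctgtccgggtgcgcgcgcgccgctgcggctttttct
ACSL1: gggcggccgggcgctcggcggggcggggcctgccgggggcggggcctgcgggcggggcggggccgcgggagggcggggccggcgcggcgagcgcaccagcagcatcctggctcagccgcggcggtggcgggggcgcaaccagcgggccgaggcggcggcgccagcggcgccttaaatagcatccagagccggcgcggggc

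Their positions are chr20:34874789-34874988 (ACSS2, plus), chrX:109733258-109733457 (ACSL4, minus) and chr4:184825969-184826168 (ACSL1, minus). ACSS2 held 1 box, and the printed stretches of ACSL4 and ACSL1 held none of the motifs searched.

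The table listed windows for 33 of the 37 genes, 49 windows in all, each running from 250 bases before to 50 after a start. ACAT2, FDFT1, SQLE and FASN had none. CCAAT, searched on both strands, stood in 16 of 18 sterol genes and 10 of 15 fatty acid genes, beside 39.7% of all 27305 genes in the table. By window, the shares were 78.3% for the sterol branch, 46.2% for the fatty acid branch and 34.6% for all 35116 windows of that length. Among sterol genes, the box stood in 7 of the 7 called lower that had a window and in 9 of the 11 not called, so it did not separate them. The fatty acid counts were 3 of 5 called and 7 of 10 not called. CACGTG stood in windows of INSIG1, SC5D, LSS and ELOVL5, and in 8.77% of all genes. Its longer form TCACGTGA, which contains CACGTG and is the form known from lysosomal gene promoters, stood in INSIG1 alone of these genes and in 1.18% of all genes. The sterol response element, searched as TCACNCCAC, stood in SREBF2 and ACSL1 and in 1.39% of all genes. This spelling is strict, and a match is a description of the letters, not of a bound site.

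**Figure D2:**
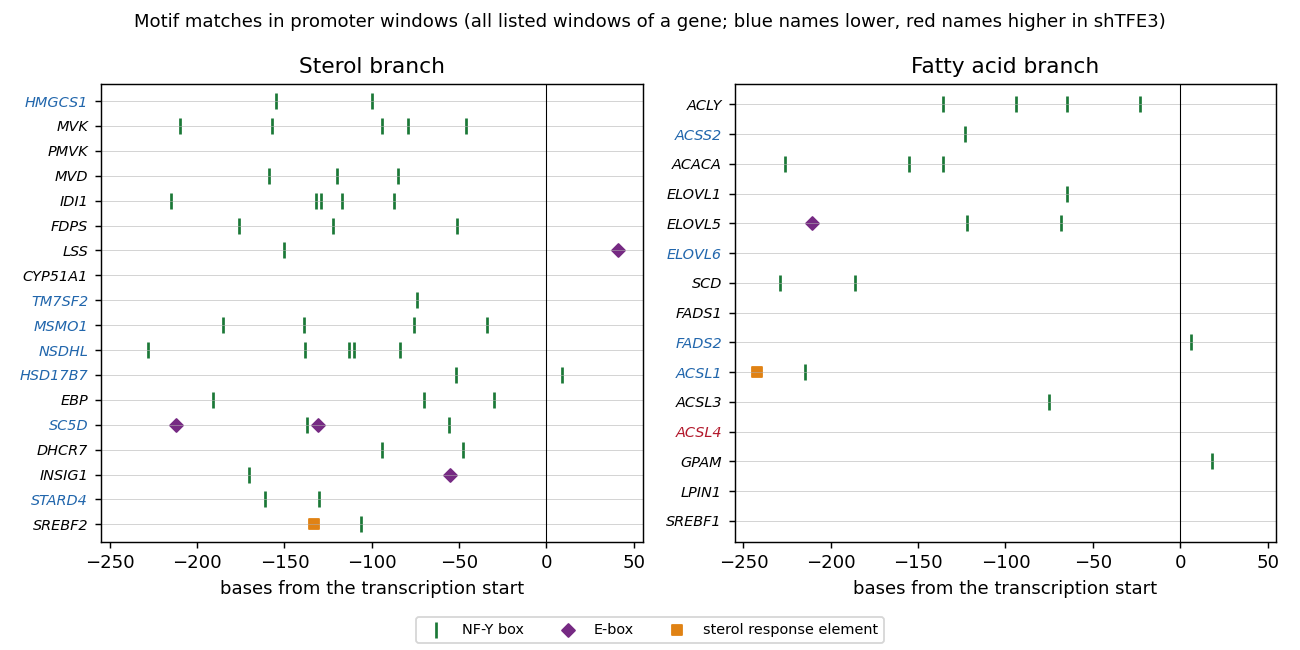
Positions of motif matches in the RefSeq promoter windows of 33 genes, in bases from the transcription start, sterol branch left and fatty acid branch right. Green bars are CCAAT, diamonds CACGTG and squares TCACNCCAC on either strand, blue names are genes that fell and red ones genes that rose. Most sterol rows carry a green bar upstream of the start. Overlapping windows of 1 gene can show a site at 2 distances, as in SC5D.

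The mevalonate steps turn acetyl-CoA into the isoprenoid farnesyl diphosphate, and 1 of 7 genes fell there, a share of 14.3%, near the 12.9% of all genes tested. HMGCS1 (ENSG00000112972, chr5:43289395-43313512), which encodes the cytosolic HMG-CoA synthase, was at 166 and 170 CPM in shControl and 147 and 137 CPM in shTFE3. Both knockdown libraries lay below both controls, with means of 168 ± 2.43 and 142 ± 6.87 CPM (SD, n = 2). HMGCS1 fell by 0.24 on the log2 scale (SE 0.059, edgeR adjusted p = 0.00327). The remaining 6 genes of these steps had log2 fold changes from -0.23 to 0.021. PMVK, phosphomevalonate kinase, was at 26.6 and 24.4 CPM against 20.6 and 22.8 CPM, and FDPS, which makes farnesyl diphosphate, at 124 and 115 against 108 and 104 CPM. In both genes the groups did not overlap, but the adjusted p in edgeR was 0.0699 for PMVK and 0.0502 for FDPS. ACAT2, MVK and IDI1 overlapped between the groups. MVD did not overlap but differed by little, at 77.4 and 75.7 against 74.1 and 74.8 CPM. ACAT2 counts carry a limit, since its exons share 33.9% of their length with SOD2-OT1, 26.5% with SOD2 and 9.23% with TCP1 on the opposite strand and the strand setting is not given in the sources used here.

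After farnesyl diphosphate the pathway commits to squalene and then to sterols, and 6 of these 11 genes fell. That is a share of 54.5%, beside 12.9% of all genes tested. SQLE (ENSG00000104549, chr8:124998497-125022283), the squalene epoxidase and a rate-limiting step, was at 209 and 211 CPM in shControl and 184 and 182 CPM in shTFE3. The means were 210 ± 1.31 and 183 ± 1.79 CPM (SD, n = 2), a fall of 0.20 on the log2 scale (SE 0.055, edgeR adjusted p = 0.0113). MSMO1 (ENSG00000052802, chr4:165327623-165343160), the sterol C4-methyl oxidase, was at 172 and 177 against 147 and 136 CPM and fell to 80.8% of control (log2 fold change -0.31, SE 0.059, edgeR adjusted p = 0.000354). Every knockdown library of these 2 genes lay below every control.

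NSDHL and HSD17B7 encode the next enzymes of C4 demethylation, after MSMO1. NSDHL (ENSG00000147383, chrX:152830967-152869729) was at 71.2 and 67.4 CPM in shControl and 57.2 and 61.0 CPM in shTFE3 (log2 fold change -0.23, SE 0.069, edgeR adjusted p = 0.0165). HSD17B7 (ENSG00000132196, chr1:162790702-162812817), the 3-ketosteroid reductase, was at 18.5 and 19.2 against 13.7 and 14.1 CPM and fell to 73.7% of control (log2 fold change -0.44, SE 0.10, edgeR adjusted p = 0.00211). Thus all 3 genes of C4 demethylation were called lower in edgeR, beside 12.9% of all genes tested. Their groups did not overlap, as was so in this direction for 30.5% of all genes tested. DESeq2 called MSMO1 (adjusted p = 0.000324) but not NSDHL (0.0978) or HSD17B7 (0.0620). Reads of HSD17B7 may be shared with its pseudogene HSD17B7P2, whose counts were 35 and 34 in the controls against 30 and 22 in the knockdown.

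TM7SF2 (ENSG00000149809, chr11:65111845-65116384) encodes a sterol C14 reductase, and it had the lowest level and the largest fold change of all 37 genes. It was at 4.98 and 4.87 CPM in shControl and 2.89 and 2.25 CPM in shTFE3, from 85 and 83 against 52 and 40 counts. The means were 4.93 ± 0.079 and 2.57 ± 0.46 CPM (SD, n = 2), with no overlap, a fall to 52.2% of control (log2 fold change -0.94, SE 0.19, edgeR adjusted p = 0.000798). DESeq2 gave an adjusted p of 0.0545. In the authors' deposited table, which holds 546 genes with absolute log2 fold changes of 0.585 or more, TM7SF2 was the 1 gene of the 37 listed, at a log2 fold change of -0.94, SE 0.32 and adjusted p of 0.0275.

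SC5D (ENSG00000109929, chr11:121292453-121308694), the lathosterol oxidase near the end of the route, was at 64.1 and 71.0 CPM in shControl and 55.2 and 47.3 CPM in shTFE3. The replicates of SC5D differed more than those of SQLE, yet the groups did not overlap (log2 fold change -0.40, SE 0.078, edgeR adjusted p = 0.00043). The enzymes on either side were not called. DHCR7, which makes cholesterol from 7-dehydrocholesterol, was at 196 and 201 against 193 and 189 CPM (log2 fold change -0.054, SE 0.056). FDFT1 (squalene synthase), LSS (lanosterol synthase), CYP51A1 (lanosterol demethylase) and EBP (sterol isomerase) overlapped between the groups, with log2 fold changes from -0.17 to 0.017. CYP51A1 counts carry a limit, since the gene shares 79.4% of its exon length with a same-strand readthrough gene, AC000120.2, that held 0 counts. How reads that fall in both genes were handled is not given in the sources used here. The CYP51A1 counts, 247 and 183 in shControl against 199 and 201 in shTFE3, may therefore leave out reads from the shared part. Along the route, the median log2 fold changes were -0.053 for the mevalonate steps and -0.20 for the squalene and sterol steps. That difference between steps was not tested.

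STARD4 (ENSG00000164211, chr5:111496033-111512590), a carrier of cholesterol between membranes, was at 114 and 131 CPM in shControl and 100 and 85.4 CPM in shTFE3. The groups did not overlap, although the replicates of each group lay apart, with means of 123 ± 12.1 and 92.8 ± 10.4 CPM (SD, n = 2). STARD4 fell by 0.40 on the log2 scale (SE 0.074, edgeR adjusted p = 0.000226). INSIG1, the retention protein that is itself an SREBP target, was at 283 and 280 CPM against 254 and 256 CPM. Its replicates were close and its groups apart, but the change of -0.14 had an edgeR adjusted p of 0.0557. SREBF2 was at 196 and 185 CPM in shControl and 179 and 175 CPM in shTFE3 (log2 fold change -0.10, SE 0.057, edgeR adjusted p = 0.196), a difference that did not pass the test.

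Which sterol calls held depended on the fit. Of 11 alternatives, MSMO1, SC5D, STARD4 and HMGCS1 were called in 9, TM7SF2 in 8, HSD17B7 in 7, and SQLE and NSDHL in 6. Without shTFE3 replicate 2 the edgeR adjusted p lay between 0.0624 for MSMO1 and 0.145 for STARD4, and the fold changes of STARD4 and SC5D were both -0.29 rather than -0.40. The SQLE call was lost with any library left out (adjusted p from 0.0714 to 0.104). That of NSDHL was lost without shControl replicate 1 (adjusted p = 0.172) or shTFE3 replicate 1 (0.175) as well, and that of HSD17B7 without shTFE3 replicate 1 (0.0673).

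Acetyl-CoA for both branches comes from citrate through ACLY or from acetate through ACSS2, and the 2 genes differed. ACSS2 (ENSG00000131069, chr20:34872146-34927962) was at 178 and 175 CPM in shControl and 122 and 117 CPM in shTFE3. The means were 177 ± 2.41 and 119 ± 3.43 CPM (SD, n = 2), far apart for such close replicates. ACSS2 fell to 67.5% of control (log2 fold change -0.57, SE 0.058, edgeR adjusted p = 5.92e-08) and was called in all 11 alternatives, the only gene of the 37 with that record. ACLY was at 593 and 581 CPM against 614 and 629 CPM, not overlapping, and was not called (log2 fold change 0.083, SE 0.052, edgeR adjusted p = 0.277).

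In fatty acid synthesis proper, FASN rose and ACACA was not called. FASN (ENSG00000169710, chr17:82078333-82098332), the fatty acid synthase, was at 1131 and 1040 CPM in shControl and 1309 and 1288 CPM in shTFE3. The means were 1086 ± 64.4 and 1299 ± 14.5 CPM (SD, n = 2), and FASN rose by 0.26 on the log2 scale (SE 0.054, edgeR adjusted p = 0.00082). That call was lost without shControl replicate 2 (adjusted p = 0.105) and without either shTFE3 library (adjusted p = 0.0664 and 0.0687), with the sign kept. ACACA, the acetyl-CoA carboxylase ahead of FASN, was at 246 and 240 CPM against 262 and 270 CPM, in the same direction but not called (log2 fold change 0.13, edgeR adjusted p = 0.0915).

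Elongation and desaturation held falls, values near control, and values somewhat above control that were not called. ELOVL6 (ENSG00000170522, chr4:110045846-110199199), which extends palmitate, was at 15.6 and 16 CPM against 11.6 and 11.6 CPM, with no overlap (log2 fold change -0.44, SE 0.11, edgeR adjusted p = 0.00362). DESeq2 gave ELOVL6 an adjusted p of 0.0934, and edgeR without shTFE3 replicate 1 or 2 gave 0.0679 and 0.0741. FADS2 (ENSG00000134824, chr11:61792980-61867354), the delta-6 desaturase of polyunsaturated fats, was at 140 and 136 CPM against 128 and 116 CPM (log2 fold change -0.18, SE 0.062, edgeR adjusted p = 0.0379). FADS2 was the least stable call, made in 5 of the 11 alternatives and lost with any library left out (adjusted p from 0.0546 to 0.291). Its neighbour FADS1, the delta-5 desaturase, lay higher in both knockdown libraries, at 340 and 334 CPM against 385 and 359 CPM, and was not called (log2 fold change 0.14, edgeR adjusted p = 0.0602). The 2 genes share 490 exon bases on opposite strands. SCD, which makes oleate from stearate, was at 2402 and 2512 CPM in shControl and 2513 and 2308 CPM in shTFE3, so the groups overlapped. ELOVL1 and ELOVL5 had log2 fold changes of 0.11 and -0.12 and were not called.

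Acyl-CoA synthetases, which activate free fatty acids for use, moved in opposite directions. ACSL1 (ENSG00000151726, chr4:184755595-184826818) was at 681 and 675 CPM in shControl and 560 and 522 CPM in shTFE3, and it fell by 0.33 on the log2 scale (SE 0.054, edgeR adjusted p = 6.16e-05). ACSL4 (ENSG00000068366, chrX:109624244-109733403), which prefers arachidonate, was at 519 and 551 CPM against 721 and 645 CPM, and it rose by 0.35 (SE 0.058, edgeR adjusted p = 6.08e-05). For both genes the groups were apart, and both calls were made in 10 of 11 alternatives, the exception being the fit with no filter on low counts. ACSL3 overlapped between the groups at 157 and 166 against 164 and 160 CPM (log2 fold change 0.0099).

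Downstream, GPAM, which starts glycerolipid synthesis, and LPIN1, a phosphatidate phosphatase, had log2 fold changes of 0.055 and 0.11 and were not called. SREBF1 was at 114 and 109 CPM in shControl and 121 and 125 CPM in shTFE3, higher in both knockdown libraries but not called (log2 fold change 0.14, SE 0.060, edgeR adjusted p = 0.0983). Neither SREBP gene therefore passed the test, and their estimates had opposite signs. SREBF1 shares 556 exon bases with RAI1 on the opposite strand.

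**Figure D3:**
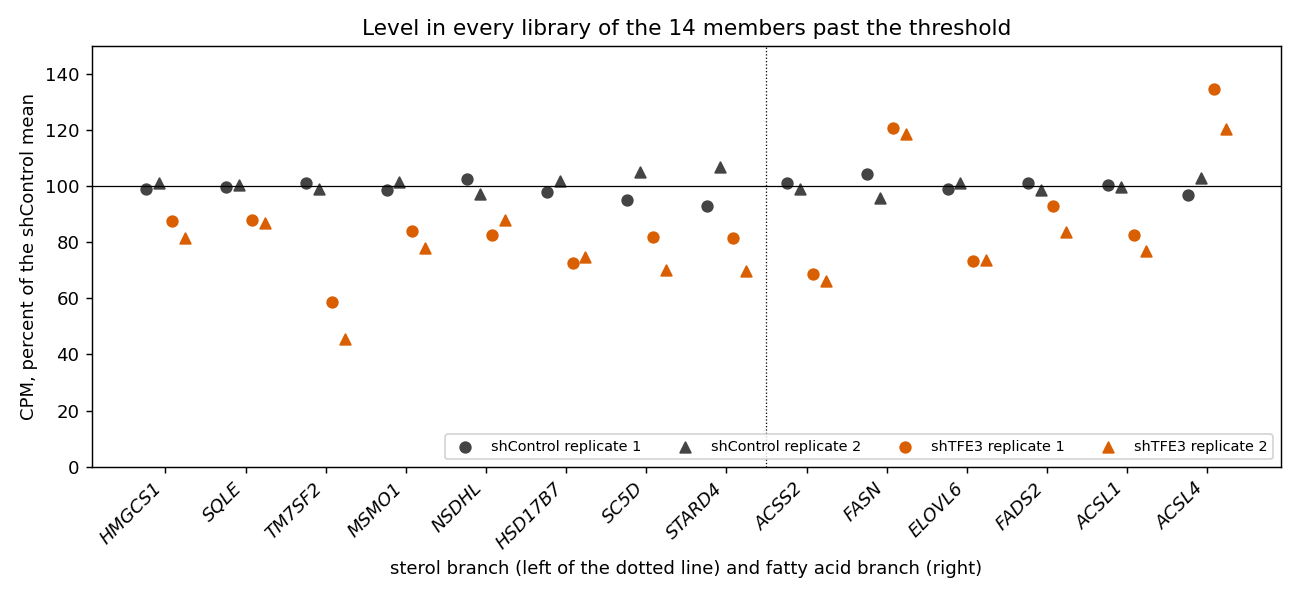
CPM of each library as a percent of the shControl mean for the 14 genes past the threshold, sterol branch left of the dotted line. Grey points are shControl and orange points shTFE3, with circles for replicate 1 and triangles for replicate 2. All 8 sterol genes have both orange points under both grey ones, and FASN and ACSL4 have both above.

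Levels can be compared between genes per length, as CPM per kilobase of exon. In shControl, SCD was highest at 458, followed by FASN at 116, ACLY at 113, ACSL1 at 108 and ACSL4 at 83.4. The highest sterol genes were INSIG1 at 77.1, MSMO1 at 60.5, SQLE at 48.7 and DHCR7 at 47.7. TM7SF2 at 1.45, GPAM at 1.5 and ELOVL6 at 2.16 were the lowest of all. The branch medians were 25.2 for sterol genes and 32.9 for fatty acid genes. Falls occurred at both ends of this range, since TM7SF2 and ELOVL6 were among the lowest and ACSL1 among the highest. Exon lengths are those of GENCODE 29 gene models, so a gene expressed mostly as a short transcript appears lower than it is.

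**Figure D4:**
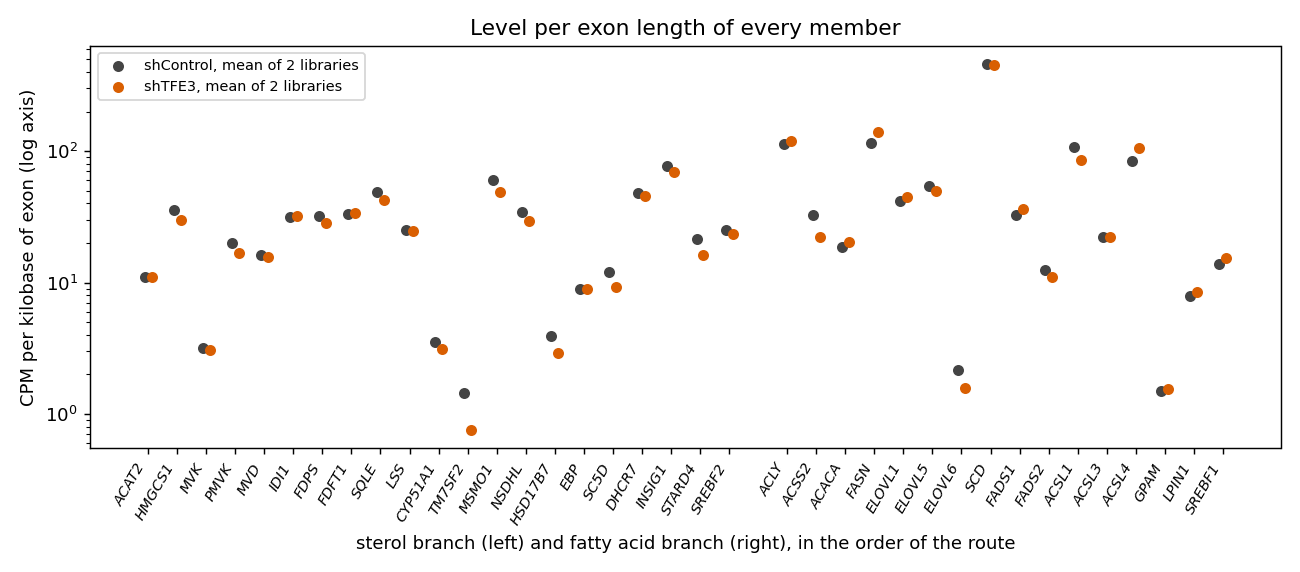
Level of each gene in CPM per kilobase of exon, on a log axis, as the mean of 2 libraries in shControl (grey) and shTFE3 (orange). Genes run in the order of the routes, sterol branch left and fatty acid branch right. SCD stands above all the others at 458 and TM7SF2 is lowest at 1.45 in shControl.

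Averaged over genes, the sterol branch was lower in both knockdown libraries than in both controls. The sterol branch had a mean log2 CPM of 6.18 and 6.16 in shControl against 5.99 and 5.96 in shTFE3, a difference of -0.20, larger than the gaps of 0.026 and 0.034 between replicates. In the fatty acid branch it was 7.68 and 7.68 against 7.68 and 7.65, a difference of -0.017, smaller than the gap of 0.030 between the shTFE3 libraries. Sterol minus fatty acid was -1.50 and -1.52 in shControl, against -1.69 in each shTFE3 library. These are descriptions of each library with no test, since the genes were chosen with results of these data known. In shTFE3 replicate 1, 19 of 21 sterol genes and 6 of 16 fatty acid genes lay under the control mean, and in replicate 2 the counts were 17 and 7.

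The shTFE3 libraries also differed in cell cycle transcripts. A list of 20 G2 and mitosis genes averaged 5.72 and 5.71 in shControl against 6.02 and 6.28 with the knockdown, on the same log2 CPM scale, with 17 of the 20 called higher. Those 17 are 85% of the list, beside 10.3% called higher among all genes tested. The list was taken because earlier results of these data had shown this difference, so its share is a description and not a test. The gap between shTFE3 replicates was 0.27 for that list and 0.034 for the sterol branch. Its part in the sterol result was not tested.

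**Figure D5:**
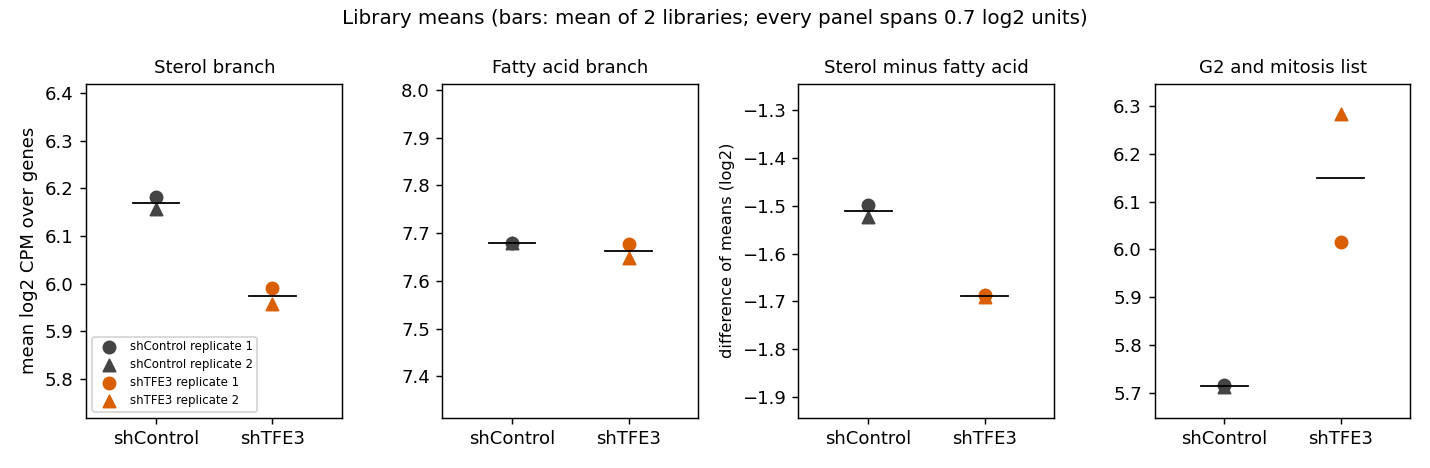
Mean log2 CPM of the sterol branch, the fatty acid branch, their difference and a G2 and mitosis list, 1 point per library, with a bar at the group mean and every panel spanning 0.7 log2 units. The shTFE3 points of the sterol branch lie at 5.99 and 5.96, under the shControl points at 6.18 and 6.16. The fatty acid points nearly coincide.

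The machinery that holds and cleaves SREBPs held 1 call. Of 12 genes for SREBP processing and sterol sensing, 1 fell, 0 rose (0 at an unadjusted p under 0.05 and 0 with DESeq2) and the median log2 fold change was -0.014. The shares of 8.33% lower and 0% higher are no larger than those of all genes tested, 12.9% and 10.3%. The gene that fell was SPRING1, a protein needed for SREBP cleavage, at 62.3 and 63.0 CPM in shControl and 45.9 and 47.6 CPM in shTFE3 (log2 fold change -0.42, SE 0.070, edgeR adjusted p = 5.9e-05). Both knockdown libraries of SPRING1 were well under both controls.

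Other enzymes of the same routes gave 8 falls and 2 rises among 39 tested of 41, with a median of -0.054. That is 20.5% lower and 5.13% higher, against 12.9% and 10.3% of all genes tested. ELOVL7, another fatty acid elongase, was at 50.1 and 50.9 CPM against 26.4 and 26.5 CPM (log2 fold change -0.93, SE 0.077, edgeR adjusted p = 1.8e-09). FADS3, a further desaturase of the FADS cluster, fell by 0.25 on the log2 scale (SE 0.064, edgeR adjusted p = 0.00524). Without shTFE3 replicate 1, and likewise without shTFE3 replicate 2, this list gave 2 falls and 0 rises, and without shControl replicates 1 and 2 it gave 6 and 0, and 4 and 1. DESeq2 gave 3 falls and 0 rises.

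Cholesterol uptake, release, storage and efflux genes gave 3 falls and 2 rises among 15 tested of 18, with a median of 0.0036. The shares of 20% lower and 13.3% higher lie near those of all genes tested, 12.9% and 10.3%. ABCA1, which exports cholesterol from the cell, rose from 232 and 219 CPM to 306 and 292 CPM (log2 fold change 0.41, SE 0.056, edgeR adjusted p = 5.82e-06). NPC2, the lysosomal cholesterol carrier, fell by 0.43 (SE 0.067, edgeR adjusted p = 2.81e-05), and VLDLR, a lipoprotein receptor, fell by 0.42 (SE 0.067, edgeR adjusted p = 4.21e-05). The rises numbered 1 with any library left out. In fatty acid oxidation, 6 genes fell and 1 rose among 24 tested of 26, with a median of -0.070. These are 25% lower and 4.17% higher, beside 12.9% and 10.3% of all genes. ACADM, the medium-chain dehydrogenase, fell by 0.34 (edgeR adjusted p = 0.00225), EHHADH of peroxisomes fell by 0.33 (edgeR adjusted p = 0.00279), and PPARA, a nuclear receptor for fatty acids, rose by 0.35 (edgeR adjusted p = 0.00402). The oxidation genes called lower numbered 0 in edgeR without shTFE3 replicate 2 (7 at an unadjusted p under 0.05), 2 without shTFE3 replicate 1, 4 without shControl replicate 2, and 3 with DESeq2. Those called higher numbered 0 without either shTFE3 replicate (1 at an unadjusted p under 0.05 in each fit) and 0 with DESeq2, and 2 without shControl replicate 1.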

How the data were processed

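Polyadenylated RNA was sequenced as paired 150-base reads. The authors deposited raw counts for each Ensembl identifier. The submitters' processing notes name Trim Galore, STAR, featureCounts, DESeq2 and the build hg38, without versions. Annotation, strand setting and the handling of multi-mapping reads: not given in the sources used here. The authors' deposited comparison table holds log2 fold changes, their standard errors (recorded under the unit score) and p-values.

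Groups came from sample titles. Counts were fitted with edgeR 4.0.16 (R 4.3.3), using TMM factors and filterByExpr by group, on 15950 genes holding 99.8% of counts. The quasi-likelihood test had 2 residual and 22.4 prior degrees of freedom, and the biological coefficient of variation was 4.16%. The procedure was tested on simulated data. Library means were taken on log2 CPM (prior count 2). Alternatives were RLE and upper quartile factors, no filter, at least 50 counts in 2 libraries, DESeq2 1.42.0, limma-voom (limma 3.58.1), a replicate block, each library left out, and for the branch difference a prior count of 0.5 and enzymes only.

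A count of 3, the detection floor for counting error only, is 0.169 to 0.174 CPM. Replicates differed by more than sampling noise (chi-square over degrees of freedom 2.00 in shControl and 3.30 in shTFE3). Coordinates are those of GENCODE 29. A gene name table gave 61415 symbols, GENCODE 29 another 105, and 13 identifiers stayed without. Members and lists were chosen with earlier results of these data known. The genes given a value in every library are TFE3, members past the threshold, SREBF1, SREBF2 and the 3 largest fold changes of a branch, and, from each other list, up to 3 called genes with the smallest p were named, of which 1 is not reported here. Library values of other members were added after they were seen. Of the marker lists, summed counts were 48 to 69 for endothelium, 336 to 345 for fibroblasts and 2 to 11 for leukocytes. Figures used Python 3.11.15, pandas 2.3.3, numpy 2.4.6 and matplotlib 3.10.9.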

Additional observations from a re-analysis of the deposited data

How the results depend on the processing

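No fold change of a called gene changed sign under any of the 11 alternatives. With RLE or upper quartile factors, the filter at 50 counts, limma-voom or the replicate block, all 14 calls held. The replicate block gave 8 sterol genes lower, and 4 lower and 2 higher in the fatty acid branch, as without it. The differences between replicates 1 and 2 of the 2 groups had a correlation of -0.029 across genes. No shared replicate effect was visible in it, but it cannot show whether the numbers pair the libraries, which the labels do not give. Upper quartile factors added FDPS and INSIG1 (adjusted p = 0.0486 and 0.0495), and the filter at 50 counts added FADS1 (adjusted p = 0.0396).

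Without a filter on low counts, 31954 genes were tested and the prior degrees of freedom were 2.09. In that fit edgeR called 280 of all genes lower and 104 higher. It called 0 sterol genes lower (11 at an unadjusted p under 0.05). In the fatty acid branch it called 1 lower (ACSS2) and 0 higher (6 at an unadjusted p under 0.05). DESeq2 called 5 sterol and 2 fatty acid genes lower. With each library left out in turn, sterol genes called lower numbered 0 to 7, fatty acid genes lower 2 to 3, and fatty acid genes higher 1 to 2. The median log2 fold change then lay between -0.19 and -0.11 for the sterol branch and between 0.047 and 0.090 for the fatty acid branch. The prior degrees of freedom were 3.98 and 4.25 without a shTFE3 library and 452 or infinite without a shControl library, so those counts are not on equal terms. The difference of branch means was -0.16 over enzymes only and -0.18 over all members. TM7SF2, at 40 to 85 counts, is the gene where depth limits precision most.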
